A study of Homo sapiens with 28 samples.

Results

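Creatine synthesis draws on arginine and releases ornithine, the amino acid from which the polyamines are made. GATM moves the amidino group of arginine to glycine, which gives guanidinoacetate and releases ornithine, and GAMT methylates guanidinoacetate to creatine. CKB, the brain-type creatine kinase, stores phosphate on creatine, and SLC6A8 carries creatine into the cell. ARG2, the mitochondrial arginase, also makes ornithine from arginine, SLC25A15 exchanges ornithine and citrulline across the inner mitochondrial membrane, and OAT, ornithine aminotransferase, sends ornithine toward glutamate and proline. ODC1 decarboxylates ornithine in the first step of polyamine synthesis, and the antizyme inhibitors AZIN1 and AZIN2 keep it from antizyme. In the body GATM is known for its level in the kidney, and the cells here are of embryonic kidney origin.

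These 10 genes were read in HEK293 cells, a human embryonic kidney line, as 10 of the 18417 genes that had a probeset of a single gene symbol on Human Gene ST1.0 arrays. They were selected on their log2 values on these arrays, those with CLP1, DDX17 and HNRNPL hairpins first and with no stated threshold, so those contrasts, and every contrast among the first-series knockdowns, are given below as estimates with no test. Whether values of the second series or of DDX5 also entered the choice is not recorded. Their tests are given on the reading that they did not, and would be too favourable if they did. Each of the 10 is measured, by 1 probeset of its own, and no filter on low values was used. SLC6A8 also lies in 2 further probesets shared with its pseudogene copies, which were left out, and its level is less certain because the copies are nearly identical in sequence.

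All 28 arrays came from cells infected with lentivirus, in which the U6 promoter drives a short hairpin RNA (shRNA), and kept under puromycin, the lacZ controls included. The arrays fall into 2 series by median intensity, which neither the study nor the sample titles name. The first series of 14 arrays held 3 hairpins each against CLP1, DDX17, HNRNPL and DDX5, 1 against CPSF6, and 1 array of the lacZ hairpin, whose bacterial target human cells lack. The second series of 14 held 3 hairpins each against PABPC1, PARP1, PRKDC and SUPT16H, and 2 arrays of the lacZ hairpin. CLP1, CPSF6 and PABPC1 act on the 3′ ends of mRNAs, DDX5 and DDX17 are related RNA helicases, HNRNPL binds RNA and alters splicing, PARP1 and PRKDC respond to DNA breaks, and SUPT16H is a subunit of the histone chaperone FACT. The 3 arrays of a knockdown carry different hairpins. Whether the lacZ arrays are of separate cultures is not in the labels, and a p-value here covers only the spread among these arrays, which may be technical in part. All lacZ arrays carry a single hairpin, no uninfected cells are in the design, and a gene lower in every knockdown cannot be told apart from a gene raised in the lacZ cells. In these bulk samples fewer cells of a type and less RNA per cell cannot be told apart either.

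The targeted gene was below its lacZ level on 25 of 25 knockdown arrays. The fall was smallest for CLP1, with a mean log2 difference of -0.57. For the other targets it lay between -0.93 (HNRNPL) and -2.26 (PRKDC). Of the genes that this line is known for, NEFL lay at the 99.2 percentile of mean level, EYA1 at 67.3 and PAX2 at 49.4, while NEFM and LHX1 lay at 37.2 and 40.5. Markers of other cells lay from 1.6 (PTPRC) to 22.2 (CD3E) for blood, from 2.1 (DCN and LUM) to 60.6 (COL1A1) for fibroblasts, from 8.0 (MYH2) to 68.0 (ACTA1) for muscle and from 18.0 (CUBN) to 52.7 (LRP2) for proximal tubule. Arrays of the first series had median intensities of 85.0 to 93.3 and those of the second 70.1 to 74.4, so levels are compared within a series. Replicate 1 of lacZ in the first series and replicate 2 in the second differed over genes with an SD of 0.06 on the log2 scale, against 0.24 and 0.23 from replicate 3 and 0.16 to 0.76 between hairpins of a gene. This is below the noise of every other pair compared, so the pair was taken as 1 array and counted once in correlations. In the main limma fit each stood as a control of its own series. Every first-series comparison with lacZ rests on a single control array, and the second-series comparisons share that array with them. The median of 207 small RNA genes lay 0.93, 0.88 and 0.96 above lacZ on the log2 scale on DDX5 array 3, DDX17 array 2 and HNRNPL array 3, and at most 0.64 above it on any other. Below, values are log2 intensities, differences are log2, knockdown minus the other side, with the standard error (SE) of limma, a linear model fitted to all genes, and p-values are its own, adjusted over all 18417 genes (Benjamini-Hochberg) and called under 0.05.

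Within its series, GATM read highest with the CLP1 hairpins and some DDX5 hairpins, and it was below lacZ in every other knockdown. Its log2 intensity was 6.39, 6.64 and 6.78 with the 3 CLP1 hairpins, 5.39, 4.81 and 5.03 with DDX17, and 4.97, 5.22 and 4.59 with HNRNPL, against 6.15 on the lacZ array of that series. All 3 CLP1 arrays thus lay above lacZ, all 6 DDX17 and HNRNPL arrays below it, and the CLP1 range did not meet those of DDX17 and HNRNPL. With DDX5 hairpins GATM read 6.76, 6.44 and 5.47, so that the first 2 hairpins fell among the CLP1 values and the third, on the array high in small RNA, did not. The CPSF6 array read 5.60.

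The estimates for the contrasts that chose GATM were 0.46 ± 0.31 for CLP1 against lacZ, -1.07 ± 0.31 for DDX17 and -1.22 ± 0.31 for HNRNPL. For CLP1 the 95% interval reached from -0.19 to 1.10. CLP1 minus DDX17 was 1.53 ± 0.22, a 2.88-fold higher intensity, and CLP1 minus HNRNPL was 1.68 ± 0.22, or 3.19-fold. Set against the mean of the other 3 first-series knockdowns, CLP1 stood at 1.19 ± 0.18, DDX5 at 0.69 ± 0.18, DDX17 at -0.84 ± 0.18 and HNRNPL at -1.04 ± 0.18. Without the 3 arrays high in small RNA, CLP1 minus DDX17 was 1.40 and CLP1 minus HNRNPL 1.51 for GATM, so CLP1 stayed above both. The DDX5 hairpins then left, at 6.76 and 6.44, lay within the CLP1 range of 6.39 to 6.78, so CLP1 did not stand apart from DDX5. GATM lay at the 24.7 percentile of mean level, and at such dim intensities background compresses folds.

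GATM was low in every knockdown of the second series, which shares a lacZ array with the first. GATM read 4.13, 4.27 and 4.13 with the PABPC1 hairpins and 4.31, 4.84 and 4.43 with PARP1. With PRKDC it read 4.02, 3.90 and 4.32, and with SUPT16H 4.49, 4.36 and 4.53, against 5.85 and 5.82 on the lacZ arrays. The 12 knockdown arrays lay between 3.90 and 4.84, and all were below both lacZ arrays. For GATM and the genes below, the share of all genes wholly on 1 side of lacZ was not counted. GATM fell in all 4, with differences of -1.65 ± 0.25 for PABPC1 (limma adjusted p = 0.000273), -1.30 ± 0.25 for PARP1 (0.00235), -1.76 ± 0.25 for PRKDC (8.82e-05) and -1.37 ± 0.25 for SUPT16H (0.00141), which is 2.47-fold to 3.38-fold lower. A pseudocount of 16 brought these to -1.10, -0.90, -1.15 and -0.94, and all still passed (0.000311 to 0.00465). Without lacZ replicate 2, the array shared with the first series, GATM passed in all 4 knockdowns still, at adjusted p = 0.0143, 0.0495, 0.00667 and 0.0394 by limma in the same order. DDX5 against lacZ gave 0.07 ± 0.31 (0.955, 95% interval -0.57 to 0.72), a comparison that rests on the same single lacZ array as the contrasts that chose GATM.

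**Figure D1:**
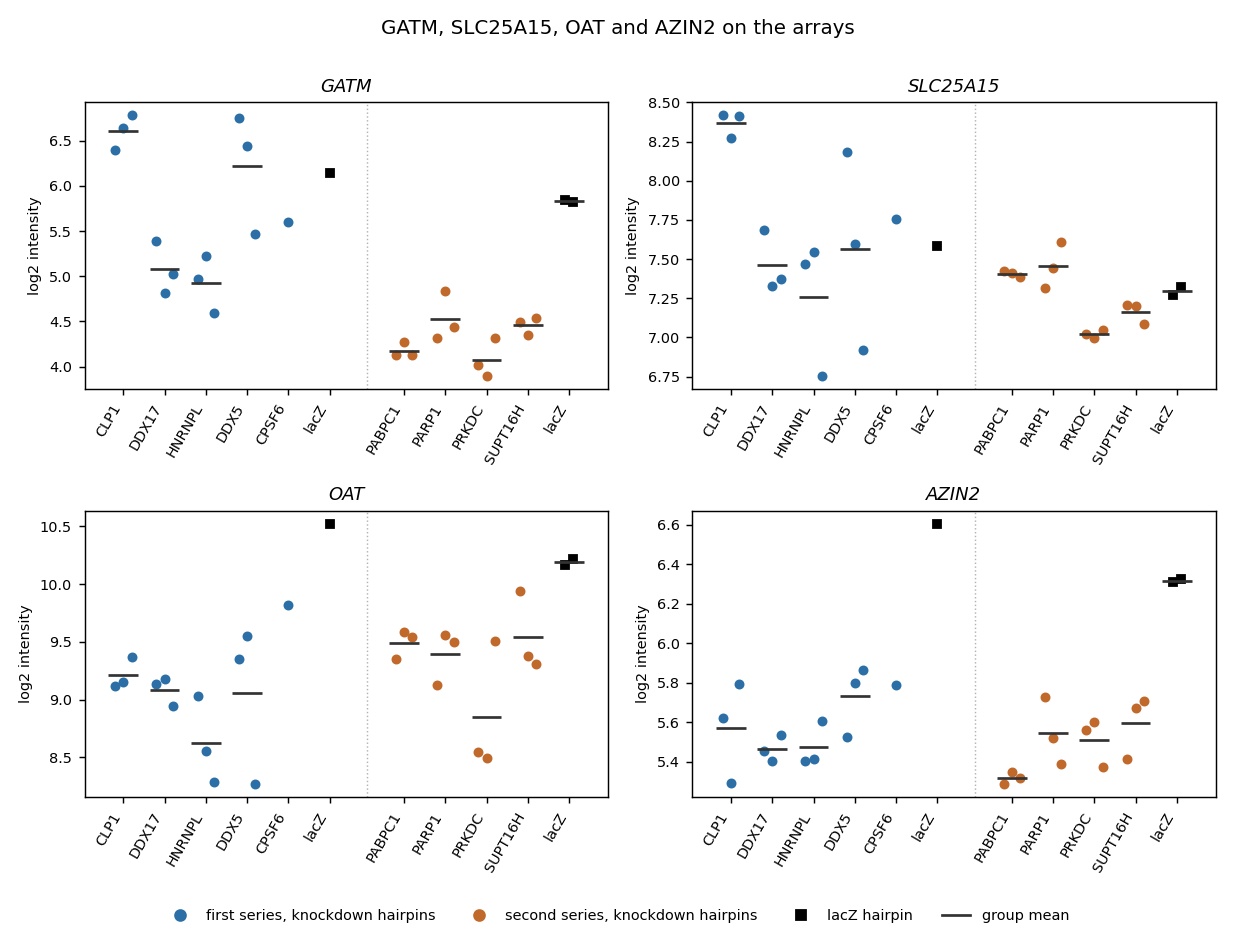
Log2 intensity of GATM, SLC25A15, OAT and AZIN2 on each array, by hairpin target, with the lacZ arrays at the right of each series and bars for group means. GATM reads 3.90 to 4.84 on the second-series knockdown arrays and 5.82 to 5.85 on the lacZ arrays there, and OAT and AZIN2 are below lacZ on all 25 knockdown arrays. The share of all genes of which that holds was not counted.

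RefSeq promoters (GRCh38.p14), windows around a transcript start, were held for 7 of the 10 genes (8 promoters, since ODC1 has 2); GAMT, AZIN1 and AZIN2 had no entry. 4 short motifs were searched on both strands. The CCAAT box (CCAAT) was in 4 of the 8, those of GATM, OAT, CKB and ARG2, against 34.6% of 35116 promoters, and the amino acid response element TGATGNAA was in 0 of the 8, against 3.62%. The cyclic AMP response element TGACGTCA was in the ARG2 promoter alone, at 2 places, against 1.85% of all. No motif searched lies within another. The stretch of GATM lies at chr15:45378602-45378624 on the minus strand, with the motif in capitals and its first base 71 bases before the start, and is set beside the OAT stretch at chr10:124418984-124419006, also on the minus strand, since these are 2 of the genes lowest against lacZ.
GATM: tcccggcagCCAATggggccgcg
OAT: ccgccccagCCAATgagcggcga

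SLC25A15, the mitochondrial ornithine carrier, was highest in the CLP1 cells. Its log2 intensity was 8.42, 8.27 and 8.42 with the CLP1 hairpins, 7.69, 7.33 and 7.37 with DDX17, and 7.47, 7.54 and 6.75 with HNRNPL, against 7.58 with lacZ. The CLP1 arrays were the highest 3 of the series, followed by DDX5 hairpin 1 at 8.18, while DDX5 hairpins 2 and 3 read 7.60 and 6.92. As estimates, CLP1 minus lacZ was 0.79 ± 0.30, CLP1 minus DDX17 0.91 ± 0.21 and CLP1 minus HNRNPL 1.11 ± 0.21. In the second series SLC25A15 did not pass the test in any knockdown, with differences of 0.11 ± 0.24 for PABPC1 (adjusted p = 0.792), 0.16 ± 0.24 for PARP1 (0.769), -0.28 ± 0.24 for PRKDC (0.352) and -0.13 ± 0.24 for SUPT16H (0.715) by limma. Across the 27 arrays counted once, with each gene centred within its series, SLC25A15 and GATM had a Pearson correlation of 0.71, which was 0.82 in the first series and 0.27 in the second. Arrays of a knockdown share their target, so the value is a description.

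OAT was below lacZ on all 25 knockdown arrays. How many of all genes lie so was not counted, and the first-series arrays share a single control. In the first series it read 9.12, 9.15 and 9.37 with CLP1, 9.13, 9.17 and 8.95 with DDX17, 9.03, 8.55 and 8.29 with HNRNPL, 9.35, 9.55 and 8.27 with DDX5 and 9.82 with CPSF6, against 10.52 with lacZ. The gap to the lacZ array was wide compared with the spread of CLP1 and DDX17, and the lowest values were those of DDX5 array 3 and HNRNPL array 3, both high in small RNA. The estimates against lacZ were -1.31 ± 0.39 for CLP1, -1.44 ± 0.39 for DDX17 and -1.90 ± 0.39 for HNRNPL. For DDX5 the difference of -1.47 ± 0.39 did not pass (limma adjusted p = 0.0774), although without hairpin 1 or 2 it did (0.0275 and 0.0312). Without hairpin 3, on the array high in small RNA, the difference shrank to -1.07 and did not pass. The DDX5 comparison rests on that same lacZ array.

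In the second series OAT read 8.55, 8.50 and 9.51 with PRKDC, against 10.16 and 10.22 with lacZ. It fell by 1.34 ± 0.31 (limma adjusted p = 0.00397), 2.53-fold lower, and the third hairpin lay apart from the first 2. The difference was -1.37 without lacZ replicate 2, and the call was lost (0.0592). OAT read 9.35 to 9.59 with PABPC1, 9.13 to 9.56 with PARP1 and 9.30 to 9.94 with SUPT16H, all below the lacZ arrays, and the differences of -0.70 ± 0.31, -0.80 ± 0.31 and -0.65 ± 0.31 did not pass (0.159, 0.134 and 0.157). At the same differences all 3 passed without the arrays high in small RNA, which lie in the other series and enter only through the shared spread (0.0391, 0.0275 and 0.0457).

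AZIN2 had the most even pattern of the 10. It lay between 5.29 and 5.87 on the 13 knockdown arrays of the first series, against 6.60 with lacZ, and between 5.29 and 5.73 on the 12 of the second, against 6.31 and 6.32. The ranges of knockdown and lacZ arrays did not overlap in either series, and the share of all genes of which this holds was not counted. The estimates were -1.04 ± 0.19 for CLP1, -1.14 ± 0.19 for DDX17 and -1.13 ± 0.19 for HNRNPL. By limma AZIN2 fell in the 4 second-series knockdowns, with differences of -1.0 ± 0.15 for PABPC1 (adjusted p = 0.000247), -0.77 ± 0.15 for PARP1 (0.00251), -0.81 ± 0.15 for PRKDC (0.000951) and -0.72 ± 0.15 for SUPT16H (0.00414). DDX5 stood at -0.87 ± 0.19 (0.02), but against the single lacZ array that the CLP1, DDX17 and HNRNPL contrasts also use, so its p is not independent of the choice of the gene. Without lacZ replicate 2 the second-series values were 0.0116, 0.0459, 0.0253 and 0.0754 in that order, the last no longer a call although its difference was -0.73, and with the first series fitted alone DDX5 was lost (0.172). AZIN2 is known for its level in testis and brain, and here it was dim, at the 34.5 percentile.

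CKB lay at the 99.1 percentile of mean level and was above lacZ on 23 of 25 knockdown arrays, but its lacZ arrays disagreed. In the second series it read 10.45, 10.44 and 10.70 with PABPC1, 10.37, 10.78 and 10.65 with PARP1, 10.44, 10.55 and 10.34 with PRKDC, and 10.81, 10.67 and 10.50 with SUPT16H, against 9.70 and 10.16 with lacZ. All 12 knockdown arrays were above both controls, whose own gap was 0.45. CKB rose by 0.60 ± 0.18 (limma adjusted p = 0.0476), 0.67 ± 0.18 (0.0277), 0.52 ± 0.18 (0.031) and 0.73 ± 0.18 (0.0141) in that order of knockdowns. Without lacZ replicate 2, the lower array, no call was left (0.507, 0.548, 0.352 and 0.281). The PABPC1 call was also lost without any 1 of its hairpins and with a pseudocount of 16. That of PARP1 was lost without hairpin 2 or 3, and that of PRKDC without hairpin 1 or 2. In the first series CKB read 10.18 to 10.24 with CLP1 and 10.13 to 10.17 with DDX17, against 10.11 with lacZ, and 10.57, 10.54 and 10.33 with HNRNPL. The DDX5 difference was 0.08 ± 0.23 (0.933).

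GAMT, the second enzyme of creatine synthesis, was above the lacZ arrays of its series on 20 of 25 knockdown arrays, and its controls disagreed too. It read 8.13, 8.06 and 7.87 with PARP1, 8.13, 7.77 and 7.89 with PRKDC, and 7.81, 7.91 and 7.88 with SUPT16H, against 7.03 and 7.36 with lacZ, a gap of 0.34 between controls. GAMT rose by 0.83 ± 0.24 with PARP1 (limma adjusted p = 0.042) and by 0.74 ± 0.24 with PRKDC (0.0233), while 0.67 ± 0.24 with SUPT16H did not pass (0.0709). Without lacZ replicate 2 both calls were lost (0.495 and 0.203). The PARP1 call was also lost without any 1 of its hairpins and after quantile normalization, and the PRKDC call without hairpin 1. With PABPC1 the hairpins disagreed, at 7.80, 6.96 and 7.81, and the difference was 0.33 ± 0.24 (0.385). In the first series GAMT read 7.80, 7.74 and 8.41 with HNRNPL and 7.41, 7.92 and 8.22 with DDX5, all above the 7.35 of lacZ. With DDX17 it read 7.32 to 7.34, which was no more than lacZ.

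SLC6A8, the creatine transporter, was below lacZ on 12 of the 13 knockdown arrays of the first series and above both controls on 10 of the 12 of the second. The exception in the first was DDX5 array 3 at 9.0, against 8.62 with lacZ, and the other knockdown arrays lay between 8.00 and 8.59. No tested knockdown passed for SLC6A8. PRKDC had the largest difference, 0.38 ± 0.21 (limma adjusted p = 0.153), with 8.72, 8.47 and 8.69, against 8.23 and 8.27 with lacZ, and it passed when the second series was fitted alone (0.0295).

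ODC1, AZIN1 and ARG2 passed in no tested comparison with lacZ. ODC1, the rate-limiting enzyme, lay at the 98.9 percentile of mean level and read 9.22 to 10.52 on the second-series knockdown arrays, against 9.99 and 10.04 with lacZ. The largest ODC1 difference was that of PRKDC, where hairpins 1 and 2 read 9.48 and 9.22 and hairpin 3 read 10.11, and -0.41 ± 0.27 did not pass (limma adjusted p = 0.212). ODC1 was above lacZ on 11 of 13 first-series knockdown arrays, with 10.55 to 10.83 for CLP1, against 10.32 for lacZ, an estimate of 0.36 ± 0.34. Of the 8 promoters, a second ODC1 start alone held the E-box CACGTG, known as the site of the MYC family and found in 7.26% of all promoters. It had it at 2 places, chr2:10448027-10448050 and chr2:10447993-10448016 on the minus strand, with the E-box in capitals, shown since ODC1 is a textbook MYC target.
ODC1, upstream of the start: ggccccgggCACGTGtgcggcgcg
ODC1, downstream of the start: ctgcggagaCACGTGgtcgccgag

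AZIN1, which binds antizyme in place of ODC1, lay above lacZ on 12 of 13 first-series knockdown arrays, at 8.97, 8.95 and 9.05 with DDX17 and 8.65, 8.88 and 8.76 with CLP1, against 8.41 with lacZ. DDX5 array 3 was the exception at 7.96. In the second series AZIN1 was below both lacZ arrays on 8 of 12 knockdown arrays, and the differences lay between -0.29 and -0.06, with no call (limma adjusted p = 0.351 to 0.922). ARG2 followed AZIN1 in the first series, at 8.53, 8.39 and 8.35 with DDX17, 8.36, 8.30 and 8.04 with HNRNPL and 8.11, 8.26 and 8.36 with CLP1, against 7.93 with lacZ. ARG2 read 8.77, 7.94 and 6.85 with the 3 DDX5 hairpins, the widest spread within a group among the 10 genes (SD 0.96). In the second series ARG2 gave -0.02 to 0.10 and no call.

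**Figure D2:**
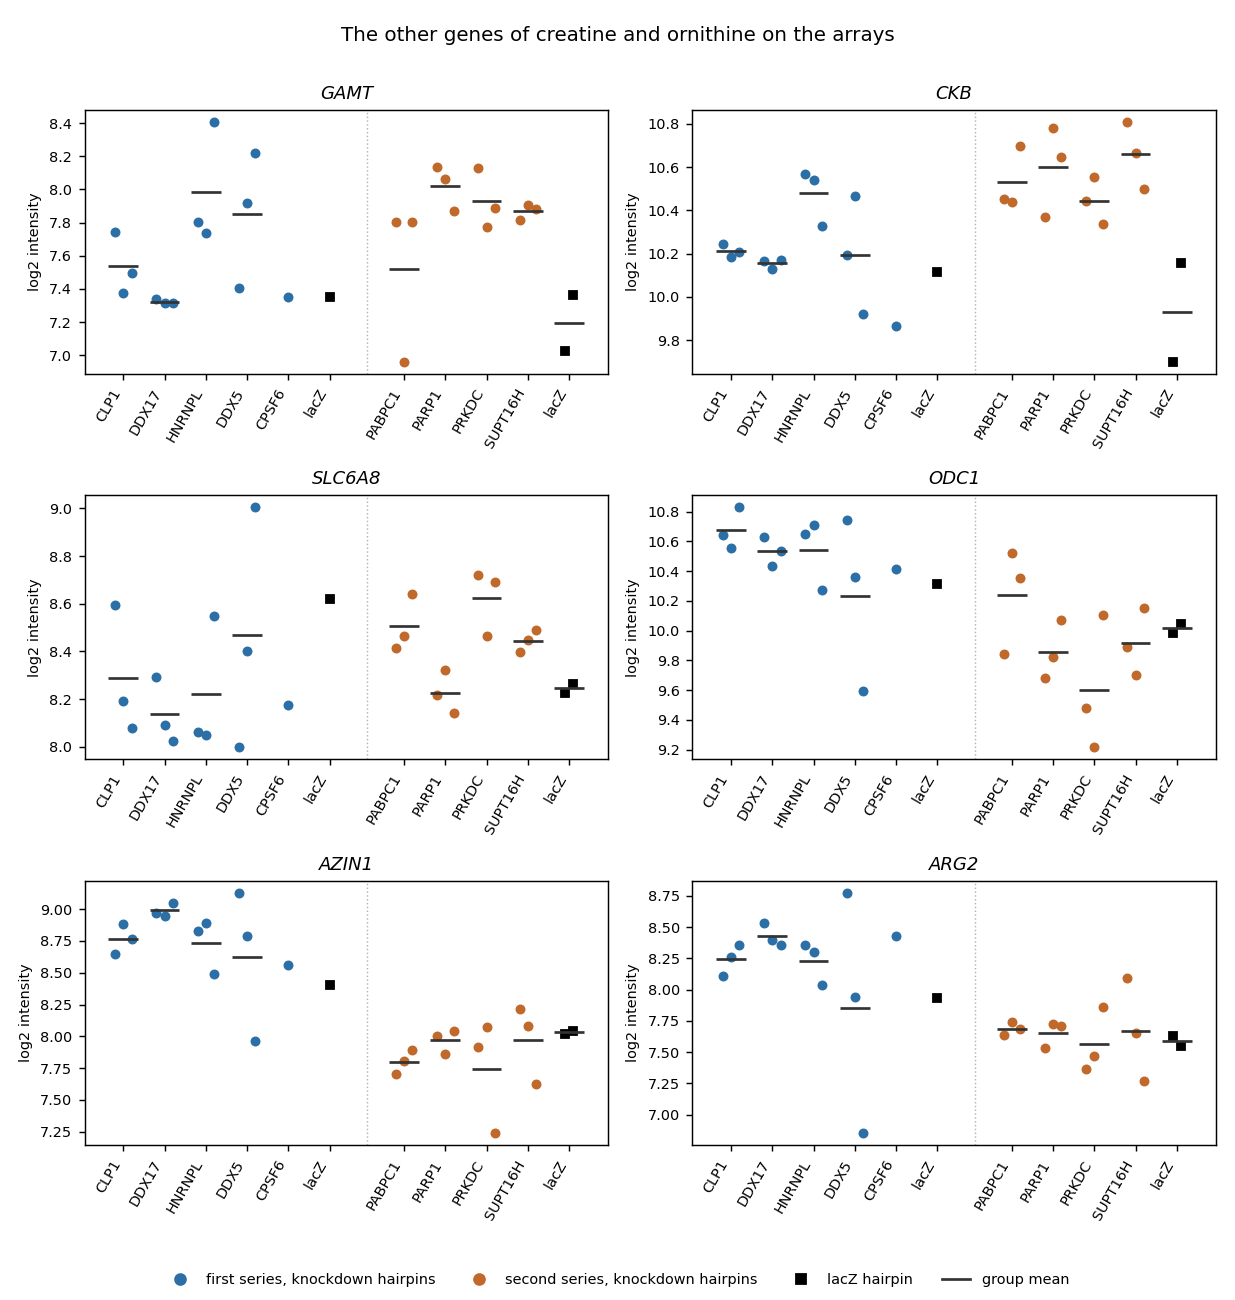
Log2 intensity of GAMT, CKB, SLC6A8, ODC1, AZIN1 and ARG2 on each array, by hairpin target, with the lacZ arrays at the right of each series and bars for group means. The 2 lacZ arrays of the second series are 0.45 apart for CKB, and DDX5 array 3 is the highest for SLC6A8 (9.0) and the lowest for ARG2 (6.85).

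DDX5 array 3 read below hairpins 1 and 2 for GATM, SLC25A15, OAT, ODC1, AZIN1, ARG2 and CKB, and above both for GAMT, SLC6A8 and AZIN2. Its small RNA genes were 0.93 above lacZ, against 0.26 and 0.51 on the other DDX5 arrays, and the part of this in the spread was not tested. HNRNPL array 3, at 0.96, was likewise the lowest of its group for GATM, SLC25A15, OAT, ODC1, AZIN1, ARG2 and CKB. DDX17 array 2, at 0.88, was the lowest of its group for GATM at 4.81, against 5.39 and 5.03, and for SLC25A15, ODC1, AZIN1 and CKB, but not for OAT and ARG2.

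Counted over the 10 genes, PABPC1 had 1 higher and 2 lower than lacZ by limma, PARP1 2 and 2, PRKDC 2 and 3, SUPT16H 1 and 2, and DDX5 0 and 1. For PRKDC the background was high, with 19.6% of all genes called higher and 16.1% lower. The background was 1.73% higher and 4.02% lower for PABPC1, 2.46% and 2.98% for PARP1, 3.77% and 5.76% for SUPT16H, and 0.174% and 0.668% for DDX5. The lower calls were GATM and AZIN2 in each second-series knockdown, with OAT added for PRKDC, and AZIN2 for DDX5. These comparisons have lacZ arrays in common. The median difference of the 10 genes was 0.11 for PABPC1, -0.04 for PARP1, -0.28 for PRKDC and -0.08 for SUPT16H, against 0.04, 0.04, 0.10 and 0.07 over all genes, so the 10 did not move one way.

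**Figure D3:**
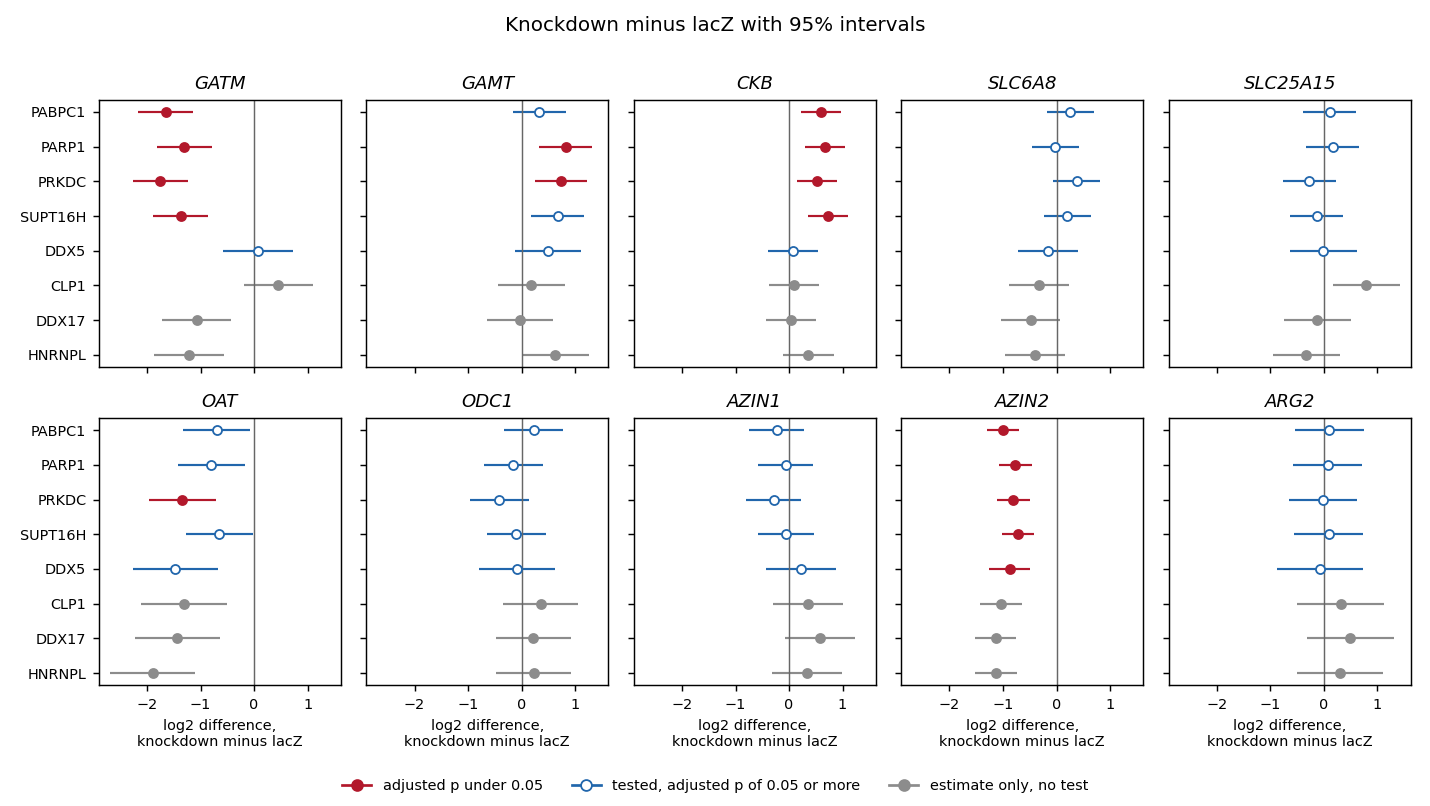
Difference in log2 intensity, knockdown minus lacZ, with the 95% interval of limma for each of the 10 genes and 8 knockdowns; filled red points passed at an adjusted p under 0.05, open blue points were tested and did not, and grey points have no test. GATM and AZIN2 lie left of 0 in all 4 second-series knockdowns, and the red CKB points fall to between 0.29 and 0.50 without the lower of the lacZ arrays. The CKB calls of PABPC1, PARP1 and PRKDC are also lost without some single hairpins.

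When each second-series knockdown was set against the other 3, none of the 10 genes passed. At an unadjusted p under 0.05 there were 3 for PABPC1, 1 for PRKDC and 0 each for PARP1 and SUPT16H. The share of all genes at that unadjusted threshold was not counted, so these numbers are no measure of an excess. Few genes of any kind passed at the adjusted threshold. All genes gave 0.0217% higher and 0.0652% lower for PABPC1, 0.5% and 0.0543% for PARP1, 0.0163% and 0.0706% for PRKDC, and 0.00543% each way for SUPT16H. GATM differed by -0.18 ± 0.18 for PABPC1 (limma adjusted p = 0.824), 0.29 ± 0.18 for PARP1 (0.368), -0.31 ± 0.18 for PRKDC (0.27) and 0.20 ± 0.18 for SUPT16H (0.807). For GATM the 95% intervals reached from -0.69 to 0.66 over the 4. On these knockdown arrays GATM read 3.90 to 4.84, and the blood gene HBB had a mean of 4.40 over all arrays. Background at such levels limits what difference between knockdowns could show. For OAT, PRKDC stood at -0.63 ± 0.22 (0.135) and passed when its series was fitted alone (0.034), as did GATM (0.0493) and SLC25A15 (0.0269) with PRKDC.

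The neighbouring genes of the pathways, which are not among the 10, were read in 5 lists drawn up with earlier results of these data known. In the first series they are set against the same single lacZ array as the 10, so their p-values there are not independent of that choice. Of 7 measured genes of creatine synthesis, transport and kinases, AHCY was the only one that passed in any comparison with lacZ. AHCY hydrolyses the S-adenosylhomocysteine that GAMT and other methyltransferases leave. Its log2 intensity was 8.82 to 9.16 with PABPC1, 9.04 to 9.24 with PARP1, 9.40 to 9.60 with PRKDC and 9.10 to 9.80 with SUPT16H, against 8.21 and 8.47 with lacZ. AHCY rose by 0.65 ± 0.19 (limma adjusted p = 0.04), 0.77 ± 0.19 (0.0149), 1.17 ± 0.19 (0.000254) and 1.16 ± 0.19 (0.000412) in that order. The PABPC1 and PARP1 calls were lost without lacZ replicate 2, and those of PRKDC and SUPT16H were kept. That of PABPC1 was also lost without lacZ replicate 3 and without hairpin 1 or 3, and that of PARP1 without hairpin 1.

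Of 11 measured genes of arginine transport and nitric oxide, SLC7A3 rose in all 4 first-series knockdowns. SLC7A3, a transporter of cationic amino acids, read 8.59 to 9.02 with CLP1, 7.77 to 9.37 with DDX5, 9.10 to 9.48 with DDX17, 8.06 to 9.02 with HNRNPL and 8.32 with CPSF6, against 6.76 with lacZ. SLC7A3 rose by 1.70 ± 0.40 with DDX5 (limma adjusted p = 0.039), 2.52 ± 0.40 with DDX17 (0.000697) and 1.91 ± 0.40 with HNRNPL (0.0119), as it did with CLP1, and with the series fitted alone the differences were the same, their SE was 0.49, and the call was lost for all but DDX17. The background was 0.337% higher and 0.619% lower for CLP1, 1.22% and 1.56% for DDX17, and 0.7% and 1.13% for HNRNPL. In the second series SLC7A3 read 5.16 to 6.70 in the knockdowns, against 6.33 and 6.40 with lacZ, with no call, and the difference between the series was not tested. NOS2, an inducible nitric oxide synthase, was the only lower call of the 5 lists in the first series, at -0.66 ± 0.18 with DDX17 (0.0465), a call lost under 6 of 12 alternatives, with adjusted p up to 0.163.

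SLC3A2, the heavy chain that partners amino acid exchangers at the cell surface, fell in all 4 second-series knockdowns. SLC3A2 read 7.86 to 8.37 with PABPC1, 7.92 to 8.01 with PARP1, 8.06 to 8.23 with PRKDC and 8.06 to 8.25 with SUPT16H, against 9.09 on both lacZ arrays. Its differences were -0.91 ± 0.22 (limma adjusted p = 0.017) with PABPC1, -0.92 ± 0.22 (0.00563) with PRKDC and -0.92 ± 0.22 (0.0132) with SUPT16H, besides that with PARP1. The PABPC1 call was lost without hairpin 1 and the SUPT16H call without hairpin 2. The 4 calls were lost without lacZ replicate 2 (0.0581 to 0.205) while the differences stayed at -0.91, -1.14, -0.92 and -0.92. NOS1, the neuronal nitric oxide synthase, rose by 1.04 ± 0.15 with PARP1 (0.000154), 0.62 ± 0.15 with PRKDC (0.00648) and 0.75 ± 0.15 with SUPT16H (0.00391), from low levels, and without lacZ replicate 2 the PARP1 call alone was kept, with 0.64 for PRKDC and 0.77 for SUPT16H.

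Of 15 measured genes of polyamine synthesis, breakdown and use, 5 were called higher and 1 lower with PRKDC, 2 higher with SUPT16H, 1 higher and 1 lower with PABPC1 and 0 with PARP1, for which 2 had an unadjusted p under 0.05. The PRKDC counts stand beside 19.6% higher and 16.1% lower of all genes, and those of SUPT16H and PABPC1 beside 3.77% higher and 5.76% lower, and 1.73% higher and 4.02% lower. No share of all genes was counted for an unadjusted p under 0.05, here or in the first series below. The spermine synthase SMS rose by 0.57 ± 0.17 with PRKDC (limma adjusted p = 0.017) and by 0.73 ± 0.17 with SUPT16H (0.0113), and the spermine oxidase SMOX by 0.70 ± 0.15 (0.00256) and 0.47 ± 0.15 (0.0458). AMD1, whose product gives the aminopropyl groups of spermidine and spermine, fell by 0.99 ± 0.32 with PRKDC (0.0243). With PABPC1 the spermidine synthase SRM rose by 0.58 ± 0.18 (0.0499), and SAT2, a gene of the acetyltransferase family of SAT1, stood at -0.71 ± 0.15 (0.00803). Of 14 alternatives, the SMOX call of SUPT16H was lost under 6, the SRM call under 5 and the AMD1 call under 4. For each of these, leaving out a single hairpin was among them. In the first series 0 of the 15 passed, with 1, 1, 2 and 3 at an unadjusted p under 0.05 for CLP1, DDX5, DDX17 and HNRNPL.

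Of 8 measured genes of ornithine, the urea cycle and agmatine, the only call against lacZ was NAGS, which makes the activator of the urea cycle and rose by 0.75 ± 0.18 with PRKDC (limma adjusted p = 0.00499). Of 7 measured genes of the proline and glutamate arm, 2 were higher and 1 lower with PRKDC, where 19.6% of all genes were higher and 16.1% lower, so counts of this size are near the background. ALDH4A1, which makes glutamate from the product of OAT, rose by 0.58 ± 0.14 there (0.00625) and by 0.51 ± 0.14 with PABPC1 (0.0373), PYCR3, a pyrroline carboxylate reductase, rose by 0.43 ± 0.15 (0.0293), and glutamine synthetase GLUL fell by 0.78 ± 0.20 (0.00791). With PRKDC the arginine transporters SLC7A2 and SLC7A6 fell too, at -0.91 ± 0.23 (0.00661) and -0.67 ± 0.18 (0.00898). The ALDH4A1 call of PABPC1 and the PYCR3 call of PRKDC were each lost under 4 of 14 alternatives, single hairpins left out among them. Without lacZ replicate 2 every call named here from the polyamine, urea cycle and proline lists was lost, and so were those of SLC7A2 and SLC7A6, but the differences kept their sign. They were no smaller for NAGS (0.77), SMS (0.65 with PRKDC and 0.81 with SUPT16H), SAT2 (-0.74) and SLC7A6 (-0.74), and smallest beside the full value for SRM (0.39) and SMOX with SUPT16H (0.31).

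The gene most like GATM in pattern was SUGCT, a mitochondrial CoA transferase known for glutarate metabolism, with a Pearson correlation of 0.87 over 27 arrays, each gene centred within its series. It was 0.91 within the first series and 0.75 within the second. CYP1B1 and RFC2 followed at 0.84 each, the chloride and proton exchanger CLCN5, known in the kidney proximal tubule, at 0.84, and INTS6L at 0.83. CLCN5 was less alike in the second series, at 0.48. SUGCT read 6.89 to 7.17 with CLP1, 5.77 to 6.33 with DDX17 and 5.94 to 6.44 with HNRNPL, against 6.71 with lacZ. As with GATM, its CLP1 arrays lay above lacZ and its DDX17 and HNRNPL arrays below. The lowest correlations were those of the zinc finger genes ZNF726 (-0.83) and ZNF667 (-0.82) and of the surface protein CD99 (-0.81). CD99 read 5.84 to 6.04 with CLP1, 5.81 to 6.43 with DDX5, 7.48 to 7.69 with DDX17 and 7.66 to 7.84 with HNRNPL, against 6.36 with lacZ. The arrays of a knockdown share their target and all share the lacZ arrays, so these values describe likeness across these arrays only.

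**Figure D4:**
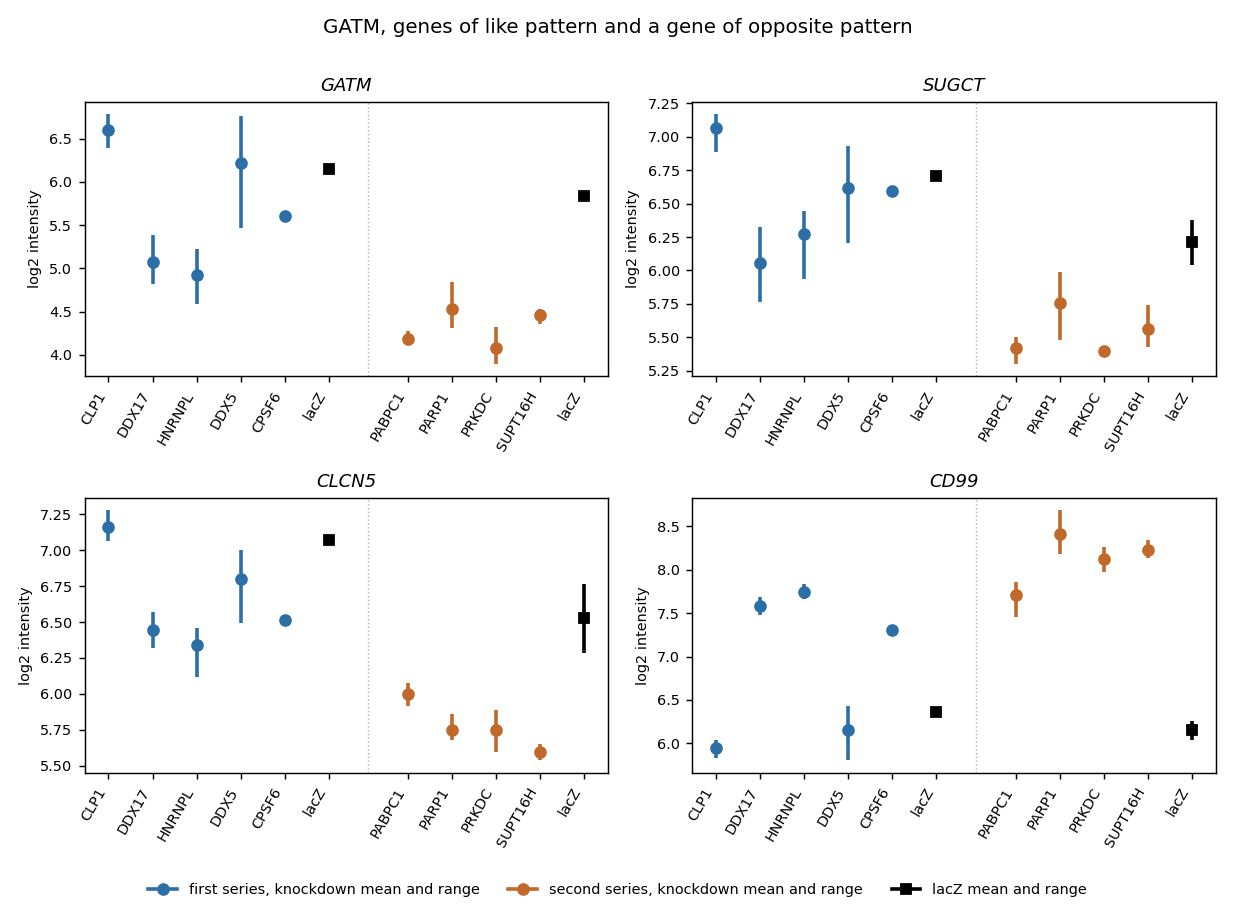
Mean and range of log2 intensity by hairpin target for GATM, SUGCT, CLCN5 and CD99, with lacZ at the right of each series. CLP1 has the highest mean of the first series for GATM, SUGCT and CLCN5 and the lowest for CD99.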

How the data were processed

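Cells were HEK293 with shRNA lentivirus, 28 arrays in 2 series. The authors made the values by RMA (robust multi-array averaging: background subtraction, quantile normalization, and a summary over probes), and the deposited table holds intensity on the linear scale (4.25 to 18486). That RMA was run on each series apart is inferred from the array medians and the near-identical lacZ pair, and the study does not state it. The study's probe-level work placed single probes on hg19, and no probeset coordinate is used here. Of 33252 probesets, 19460 had 1 symbol. The probeset with the highest mean was used per gene (18417 genes), at log2 with no pseudocount and no filter. The number of arrays limits the precision.

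Targets and hairpins came from the sample labels, and the series did not. The limma 3.58.1 model (R 4.3.3) had a mean per target and series and variances that follow intensity (degrees of freedom 17 residual, 8 prior). It was also run on values simulated from the means and spreads of these data. The genes, lists and alternatives were chosen with earlier results of these data known. Named beside the 10 genes are at most 4 called genes per list and comparison, of 1 sign in all 3 hairpins, and the 5 most and 3 least like GATM. Alternatives changed 1 choice at a time, namely the series fitted alone, lacZ pooled over both series, quantile normalization, median centring, a pseudocount of 16, a filter on dim genes, the mean over probesets, no trend, a replicate block and each array left out. Promoters came from RefSeq. Figures were drawn with Python 3.11.15.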

Additional observations from a re-analysis of the deposited data

How the results depend on the processing

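Counts are of the 10 genes called by limma. Lower with DDX5 against lacZ there were 0 with the series fitted alone, 2 with quantile normalization and 2 with lacZ pooled (OAT joining), and 1 to 2 with an array left out. Higher with PABPC1 there were 0 with a pseudocount of 16 and 0 to 1 with an array left out. Higher with PARP1 there was 1 after quantile normalization and 0 to 1 with an array left out, higher with PRKDC 0 to 2, and lower with PRKDC 2 to 3. With SUPT16H there were 2 higher with the series fitted alone (GAMT joining CKB) and 0 to 1 higher and 1 to 2 lower with an array left out. Without the 3 arrays high in small RNA, an alternative chosen after seeing the data, SUPT16H had 2 higher, and PRKDC against the other knockdowns had 2 lower (OAT and SLC25A15), which was 3 with the series fitted alone (GATM joining). Without the same 3 arrays OAT was also called lower against lacZ with PABPC1 (0.0391), PARP1 (0.0275) and SUPT16H (0.0457), and SLC6A8 higher with PRKDC (0.0443). These counts fell to 0 higher in PABPC1, PARP1, PRKDC and SUPT16H without lacZ replicate 2. Where no array or control was removed, the cause was not tested.

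GATM kept its call in the 4 second-series knockdowns under each of the 14 alternatives run for it, with adjusted p up to 0.0495. No result changed sign among those called. In the first series lacZ could not be left out, since it is 1 array. Hairpin numbers name different sequences in different targets and do not pair the arrays: deviations of the same number correlated at a mean of -0.003 in the first series and 0.05 in the second. With the number as a replicate block, GATM in PRKDC against the other knockdowns stayed at -0.31 (adjusted p = 0.265), and 0 of the 10 genes were called in any second-series knockdown against the others. With an intensity reading and 1 or 2 controls, what is dim, GATM and AZIN2 foremost, is limited by background.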
